A study of Mus musculus with 6 samples.

Results

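Pdk4, Angptl4, Vnn1, Ppara, Ppargc1a, Acot1, Acot2, Cd36 and Fabp1 are a set of 9 genes around PPARA, the fasting-activated nuclear receptor, and they are described here in mouse kidney. They were taken by symbol from a table of 34714 genes, and all 9 were found. The samples were 6 kidneys from mice aged 8 weeks that ate normal chow, 3 labelled wild-type (libraries WT1, WT2 and WT3, by replicate number) and 3 labelled Hspa8 knockout (KO1, KO2 and KO3). Hspa8 encodes HSC70, the constitutive cytosolic HSP70 chaperone. Levels are given as FPKM, read fragments divided by transcript length and by what mapped in the library, so levels of different genes can be set side by side. The libraries hold no read totals in this form, and their depth is unknown. The wild-type titles name the C57 strain and the knockout titles name no strain. The mice obtained for the series were C57BL/6J, Hspa8 flox/flox on C57BL/6J, Cdh16-Cre and Pkr-/- animals. The labels do not say whether the wild-type mice carried the floxed allele or Cre. Cdh16 drives Cre in tubule epithelium, so other kidney cells would keep the chaperone. Which tubule segments lost it, the proximal tubule among them, cannot be told from whole kidney. Whether each sample came from its own animal is not stated either, so the spread between samples may be technical.

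PPARA pairs with a retinoid X receptor and is switched on by fatty acids released during fasting. It then turns on genes that import fatty acids, release them from coenzyme A, burn them in mitochondria and peroxisomes and spare glucose. PPARGC1A is a coactivator that joins it on many of these genes. In the kidney this programme runs mainly in the proximal tubule, which lives on fatty acid oxidation. PPARA binds a direct repeat of a hexamer with a single base between the copies, called DR1.

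Promoter sequence was available for 7 of the 9 genes in the RefSeq table of GRCm38.p6, and 1 of them, Fabp1, held a DR1 match. The search covered the 250 bases before each start on both strands, with AGGNCANAGGNCA as the DR1. This pattern was present in 0.338% of 32851 promoters of that length. The exact repeat AGGTCANAGGTCA was in 0.0335% of them and in 0 of the 7. A single hexamer AGGTCA, which overlaps the DR1, was in 14.0% of promoters and in those of Cd36 and Fabp1. The forkhead core GTAAACA, the site of the fasting factors of the FOXO family, was in 3.17% and in 0 of the 7. A match is only a string of letters, and its absence from this window says nothing of a factor's binding. The 4 windows below are 150 bases each, ending just before the more upstream of the RefSeq and GENCODE starts. Fabp1 is shown for its DR1, in capitals, which lies 67 to 55 bases before the RefSeq start on the opposite strand. Pdk4 is shown because it differed most between the genotypes, and Acot1 and Acot2 because they are neighbours whose transcripts resemble each other.
Fabp1 (chr6:71199677-71199826, plus strand): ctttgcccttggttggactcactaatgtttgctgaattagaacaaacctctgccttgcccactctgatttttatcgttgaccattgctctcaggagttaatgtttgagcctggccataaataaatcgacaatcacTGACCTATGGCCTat
Pdk4 (chr6:5496310-5496459, minus strand): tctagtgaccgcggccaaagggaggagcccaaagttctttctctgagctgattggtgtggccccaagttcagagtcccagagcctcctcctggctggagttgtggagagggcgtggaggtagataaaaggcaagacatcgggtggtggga
Acot1 (chr12:84009340-84009489, plus strand): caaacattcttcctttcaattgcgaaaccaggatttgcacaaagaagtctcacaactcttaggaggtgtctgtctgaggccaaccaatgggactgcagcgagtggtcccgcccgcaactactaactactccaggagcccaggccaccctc
Acot2 (chr12:83987711-83987860, plus strand): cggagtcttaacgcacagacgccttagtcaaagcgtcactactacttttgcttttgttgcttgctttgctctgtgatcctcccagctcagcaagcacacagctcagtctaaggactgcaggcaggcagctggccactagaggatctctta

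The 9 genes did not move as a block between the genotypes. Pdk4 and Vnn1 were higher in all 3 knockout kidneys than in any wild-type kidney. Acot1, Acot2, Angptl4 and Cd36 had higher means in the knockout with overlapping groups. Ppara and Ppargc1a, the receptor and its coactivator, had slightly lower means with overlapping groups. Fabp1 was close to 0 in every library. These genes were chosen by their knockout and wild-type FPKM in these same libraries, so their differences are described and not tested. In whole kidney, fewer cells of a type and less RNA per cell cannot be told apart.

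**Figure D1:**
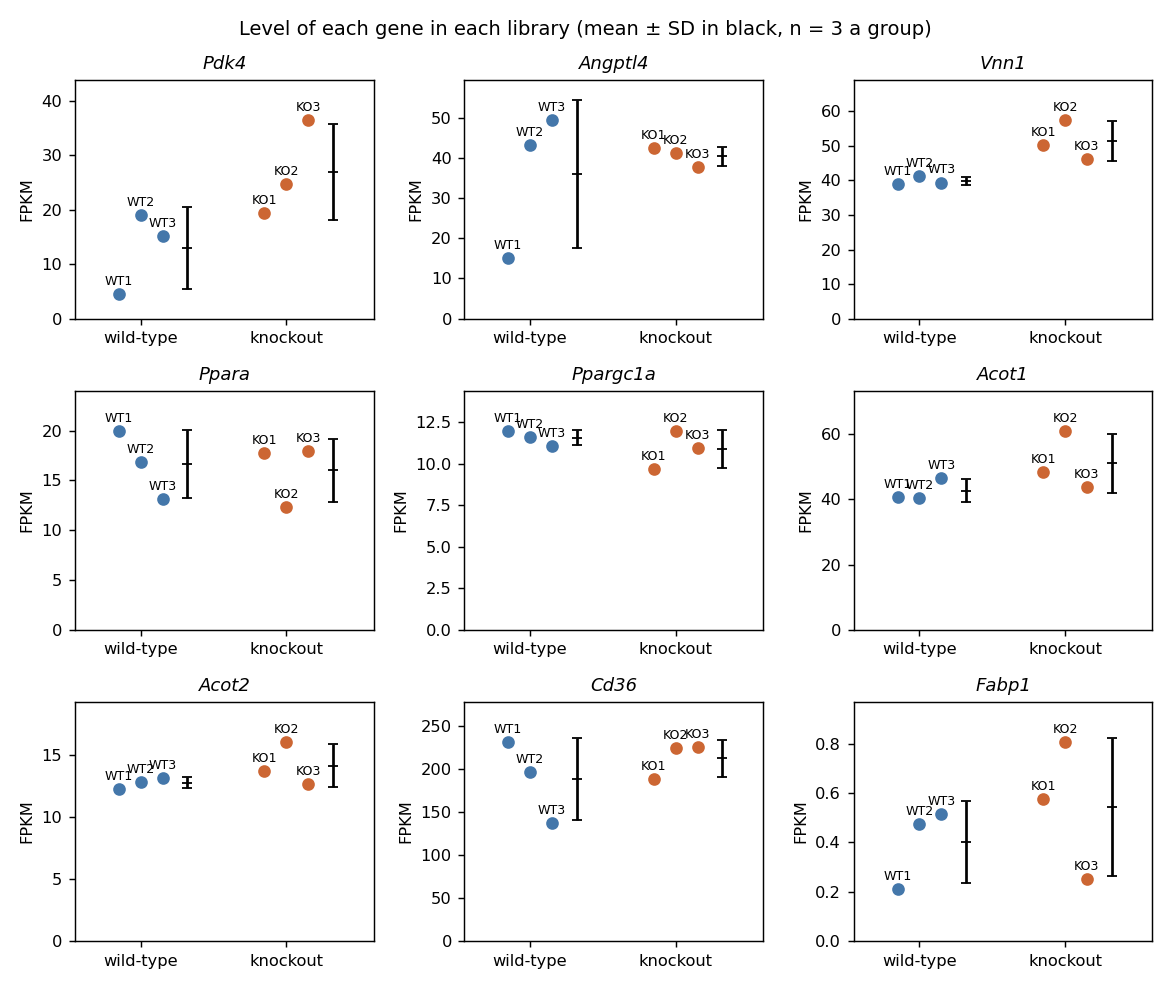
FPKM (vertical axis, from 0, scaled for each gene) of the 9 genes in 3 wild-type (blue) and 3 knockout (orange) libraries, labelled by library, with the mean and SD in black. For Pdk4 and Vnn1 all knockout points lie above all wild-type points, and WT1 lies far below the rest for Pdk4 (4.53 FPKM) and Angptl4 (15.1 FPKM).

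A few features of the libraries touch these values. Hspa8 itself stood between 1058 and 1318 FPKM in wild-type and between 650 and 781 FPKM in knockout kidneys, so all libraries went with their labels. Summed over all genes, FPKM ranged from 381586 to 417123 per library. Proximal tubule markers were abundant in all 6, with Kap at 30598 FPKM or more and Lrp2 at 102 FPKM or more. All 6 kidneys had Y-linked transcripts (Ddx3y at least 10.7 FPKM) and Xist of at most 0.0241 FPKM. Summed endothelial markers, 10 of 10 of them detected, ran from 135 to 187 FPKM in wild-type and from 103 to 135 FPKM in knockout libraries. Summed red cell markers ran from 52.1 to 59.9 FPKM in wild-type and from 77.6 to 553 FPKM in knockout libraries, highest in KO1 and KO3. Summed skeletal muscle markers stood at 18.9 FPKM in WT3 and between 4.82 and 8.88 FPKM elsewhere. Summed adipocyte markers stood at 136 FPKM in WT3 and between 70.4 and 85.3 FPKM elsewhere. No pair of libraries shared a value above 0, to 6 digits, for more than 1 gene.

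Ppara (chromosome 15, 85734910 to 85806851 in GRCm38.p6) had 20.0 FPKM in WT1, 16.9 in WT2 and 13.1 in WT3, and 17.8 in KO1, 12.3 in KO2 and 17.9 in KO3. WT3 and KO2 were low, and the groups overlapped. The means were 16.7 ± 3.45 FPKM (SD, n = 3) and 16.0 ± 3.18 FPKM (SD, n = 3). The difference in log2(FPKM + 1), knockout minus wild-type, was -0.054 with a standard error of 0.181, far inside the spread of either group. Its sign turned without WT1 (0.081) or KO2 (0.11).

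Ppargc1a (chromosome 5, 51454249 to 52115853), the coactivator PGC-1alpha that drives mitochondrial gene programmes, had 12.0 FPKM in WT1, 11.6 in WT2 and 11.1 in WT3. In the knockout it had 9.67 FPKM in KO1, 12.0 in KO2 and 11.0 in KO3. KO1 and KO3 lay below all wild-type values and KO2 was level with the highest. The difference was -0.085 (SE 0.0954) on the log2(FPKM + 1) scale, and it was -0.011 without KO1 and -0.15 without KO2.

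Pdk4 (chromosome 6, 5483351 to 5496278) encodes the kinase that shuts off pyruvate dehydrogenase when fat replaces glucose as fuel. It had 4.53 FPKM in WT1, 19.1 in WT2 and 15.2 in WT3. It then had 19.5 FPKM in KO1, 24.8 in KO2 and 36.6 in KO3. Every knockout value lay above every wild-type value, but KO1 and WT2 were almost level and WT1 was far lower than the other 5. The means of 13.0 ± 7.55 FPKM (SD, n = 3) and 27.0 ± 8.76 FPKM (SD, n = 3) differ 2.08-fold. The log2 difference was 1.15 (SE 0.449). It was 0.59 without WT1, in the same direction.

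Angptl4 (chromosome 17, 33774900 to 33781575) encodes a secreted inhibitor of lipoprotein lipase that rises with fasting. It stood at 15.1 FPKM in WT1, 43.3 in WT2 and 49.5 in WT3, and 42.4 in KO1, 41.1 in KO2 and 37.8 in KO3. The 3 knockout kidneys were close together and lay between the low WT1 and the other two wild-type kidneys. The means were 36.0 ± 18.4 and 40.4 ± 2.35 FPKM (SD, n = 3 each). The log2 difference of 0.33 (SE 0.376) became -0.19 without WT1, 0.54 without WT2 and 0.63 without WT3.

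WT1 also stood apart in some clock genes, though not in all. Dbp, an output gene of the circadian clock, had 7.91 FPKM there and between 21.0 and 29.5 FPKM in the other 5 libraries. Arntl, which encodes the clock activator BMAL1, had 6.14 FPKM there and between 2.82 and 3.76 FPKM elsewhere. The clock gene Nr1d2 had 21.5 FPKM in WT1, inside the 21.0 to 26.3 FPKM elsewhere. Per2 had 3.26 FPKM in WT1, inside the 2.53 to 7.16 FPKM elsewhere. Txnip, a brake on glucose uptake and not one of the clock genes, had 77.7 FPKM in WT1 and between 119 and 175 FPKM elsewhere. Over the 6 libraries the Pearson correlation of log2(FPKM + 1) with Dbp was 0.97 for Angptl4 and 0.80 for Pdk4, and with Arntl it was -0.91 and -0.85. With each group set to its own mean, the correlations with Dbp were 0.97 and 0.88. These are descriptions over 6 libraries in which 1 library carries most of the range. All points share the library's scaling. The 14 clock genes, all detected, summed to between 141 and 195 FPKM in wild-type and between 173 and 180 FPKM in knockout libraries, lowest in WT1. That sum mixes genes high in WT1, such as Arntl, with genes low there, such as Dbp, so it says nothing of clock phase. No source used here gives the hour of collection or the feeding state at that time. The part of the clock phase in the Pdk4 and Angptl4 differences was not tested.

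**Figure D2:**
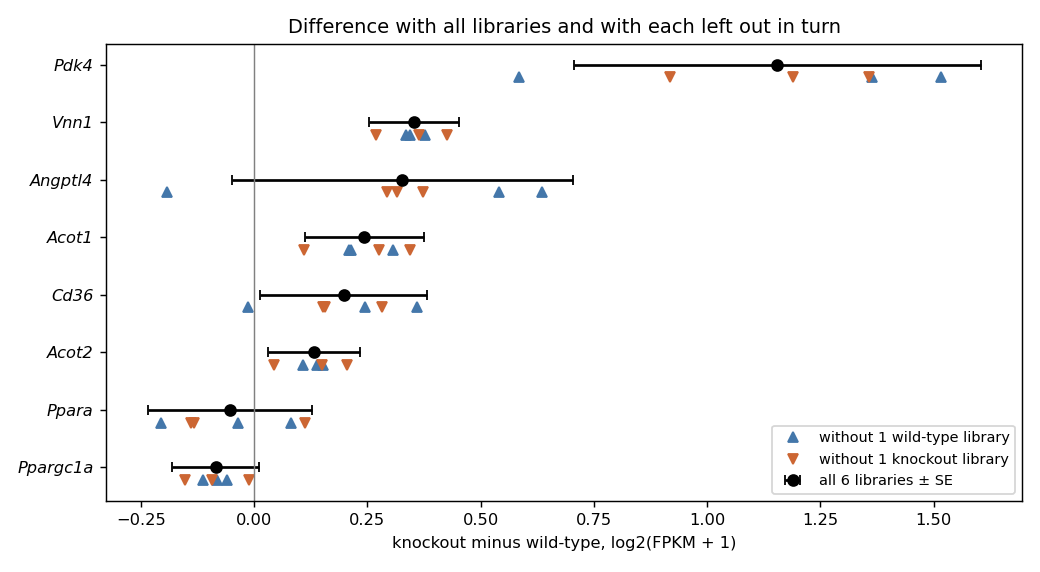
Difference of knockout minus wild-type in log2(FPKM + 1) (horizontal axis) for the 8 genes with a mean of at least 1 FPKM, with all 6 libraries (black, ± SE) and with each wild-type (blue) or knockout (orange) library left out. Pdk4 stays above 0 between 0.59 and 1.52, Vnn1 between 0.27 and 0.43, while Angptl4, Cd36 and Ppara cross 0.

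Cd36 (chromosome 5, 17781690 to 17888959), the fatty acid translocase of the cell surface, was the most abundant of the 9. It had 231 FPKM in WT1, 197 in WT2 and 137 in WT3. It then had 188 FPKM in KO1, 224 in KO2 and 225 in KO3. The groups overlapped, with WT1 highest of all 6 and WT3 lowest. The log2 difference was 0.20 (SE 0.184), -0.013 without WT3 and 0.36 without WT1. Adipocytes and endothelium also make Cd36. Of 10 adipocyte markers all were detected, with Lep and Ucp1 listed at 0 in some libraries, and their sum ran from 80.1 to 136 FPKM in wild-type and from 70.4 to 77.2 FPKM in knockout libraries. Car3 and Fabp4 made up most of that sum, and Car3 was lower in every knockout library. Adipoq overlapped between the groups, at 0.192 to 2.30 FPKM in wild-type and 0.166 to 0.719 FPKM in knockout libraries, and Lipe stood at 4.02 to 5.51 FPKM and 5.75 to 6.97 FPKM, higher in every knockout library. Adipoq, near the floor, was highest in WT3, where Cd36 was lowest. Over the 6 libraries Cd36 correlated at -0.90 with Adipoq, -0.64 with Fabp4 and -0.63 with Pecam1, an endothelial marker. The part of adipocytes and endothelium in the Cd36 values was not tested.

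Fabp1 (chromosome 6, 71199879 to 71205034), the liver fatty acid binding protein and a classic PPARA target, was near the floor of the table. It had 0.209 FPKM in WT1, 0.475 in WT2 and 0.515 in WT3. It then had 0.575 FPKM in KO1, 0.808 in KO2 and 0.249 in KO3. The groups overlapped, and the gene was left out of the fit because its mean of 0.472 FPKM is under 1. Thus the promoter with the DR1 match belongs to the least abundant of the 9 transcripts. Of 10 hepatocyte markers 9 were detected. Ahsg was listed at 0 in all 6 libraries and Alb stood between 1.43 and 2.62 FPKM, while Serpina1a stood between 13.3 and 33.8 FPKM, Serpina1c between 5.23 and 10.8 FPKM and Fga between 6.55 and 9.47 FPKM. The sum of the list, 840 to 1153 FPKM in wild-type and 1039 to 1217 FPKM in knockout libraries, was mostly Cyp2e1 and Ttr. The part of hepatocyte transcripts in the Fabp1 values was not tested.

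Vnn1 (chromosome 10, 23894688 to 23905344) encodes vanin 1, the membrane pantetheinase that splits pantetheine, a breakdown product of coenzyme A. It had 38.9 FPKM in WT1, 41.3 in WT2 and 39.4 in WT3, and 50.3 in KO1, 57.6 in KO2 and 46.2 in KO3. The wild-type kidneys were nearly equal and all knockout kidneys lay above them. The means were 39.9 ± 1.25 and 51.4 ± 5.80 FPKM (SD, n = 3 each), a 1.29-fold difference. The log2 difference was 0.35 (SE 0.0995), and it lay between 0.27 and 0.43 with each library left out in turn.

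Acot1 (chromosome 12, 84009502 to 84017670) and Acot2 (chromosome 12, 83987861 to 83993877) encode the cytosolic and the mitochondrial thioesterase that free long-chain fatty acids from coenzyme A. Acot1 had 40.8 FPKM in WT1, 40.5 in WT2 and 46.6 in WT3. In the knockout it had 48.2 FPKM in KO1, 61.0 in KO2 and 43.7 in KO3. KO1 and KO2 lay above all wild-type kidneys and KO3 inside their range. Acot2 had 12.3 FPKM in WT1, 12.9 in WT2 and 13.1 in WT3, and 13.7 in KO1, 16.1 in KO2 and 12.6 in KO3, with the same order of knockout libraries. The log2 differences were 0.24 (SE 0.131) for Acot1 and 0.13 (SE 0.101) for Acot2. Without KO2 they were 0.11 and 0.043. Without KO3 that of Acot2 was 0.20.

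Reads of Acot1 and Acot2 can be confused. Their GENCODE transcripts of 2272 and 2196 bases aligned over 2004 bases with 82.6% identity. Of all 50-base windows of the Acot1 transcript, 23.7% occur unchanged in Acot2, and 16.5% of its 100-base windows do. Another 9.09% of the 50-base windows occur in Acot5 and 7.69% in Acot3. No source used here gives the read length or how shared reads were counted. The correlation of 0.97 between both genes over the 6 libraries is therefore uncertain as a sign of separate transcripts moving together.

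Levels set the genes in a clear order only in part. In wild-type kidney Cd36 (188 FPKM) stood above Acot1 (42.6), Vnn1 (39.9), Angptl4 (36.0), Ppara (16.7), Pdk4 (13.0), Acot2 (12.8), Ppargc1a (11.6) and Fabp1 (0.400 FPKM). Neighbours from Acot1 down to Acot2 overlapped in range, while Cd36, Ppargc1a and Fabp1 were each apart from the gene next to them. In knockout kidney the means were 212 FPKM for Cd36, 51.4 for Vnn1, 51.0 for Acot1, 40.4 for Angptl4, 27.0 for Pdk4, 16.0 for Ppara, 14.1 for Acot2, 10.9 for Ppargc1a and 0.544 FPKM for Fabp1. Only Vnn1 with Acot1 and Ppara with Acot2 overlapped there as neighbours. The spread within a genotype also differed from gene to gene. In wild-type kidney the coefficient of variation was 58.3% for Pdk4 and 51.1% for Angptl4 but 3.13% for Vnn1, against a median of 10.3% over all tested genes. In knockout kidney Angptl4 had 5.82% and Pdk4 32.5%, against a median of 9.73%.

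Across the 6 libraries 7 of the 9 genes could be set in 3 courses, which were read off after the values were seen and carry no test. Cd36 and Ppargc1a were placed in none of them. Cd36 correlated at -0.023 with Pdk4, 0.021 with Acot1 and 0.45 with Ppara, and Ppargc1a at -0.32, 0.0067 and -0.21 with the same 3 genes. With Angptl4 Cd36 correlated at -0.57, and with Lrp2 and Rxra, taken up with Ppara below, at 0.63 and 0.74. Pdk4 and Angptl4 were low in WT1 and correlated at 0.79. Vnn1, Acot1 and Acot2 were highest in KO2, then in KO1, and Vnn1 correlated with Acot1 at 0.85 and with Acot2 at 0.87. Fabp1, near the floor, was also highest in KO2 and then in KO1. The same order held for Acaa1b, a peroxisomal thiolase, with 141 FPKM in WT1, 165 in WT2 and 190 in WT3, and 236 in KO1, 275 in KO2 and 177 in KO3. Cyp4a14, which encodes an omega-hydroxylase of fatty acids, stood at 11.0 FPKM in WT1, 15.7 in WT2 and 29.4 in WT3, and 61.3 in KO1, 84.9 in KO2 and 23.0 in KO3. With each group set to its own mean, Acaa1b correlated at 0.80 with Vnn1, 0.89 with Acot1, 0.90 with Acot2 and 0.98 with Fabp1.

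Ppara ran opposite to several of these genes across the libraries. Its correlation was -0.76 with Acot1, -0.75 with Acot2 and -0.67 with Acaa1b over the 6 libraries. It followed Lrp2, the gene of the endocytic receptor megalin, at 0.95. Lrp2 had 176 FPKM in WT1, 142 in WT2 and 102 in WT3, and 163 in KO1, 111 in KO2 and 181 in KO3, and Rxra, the partner of PPARA, had 30.1 FPKM in WT1, 25.9 in WT2 and 20.1 in WT3, and 27.4 in KO1, 22.8 in KO2 and 29.3 in KO3. WT3 and KO2 were thus low for all 3 genes. Proximal tubule markers did not share 1 course. Cubn was also lowest of its group in WT3 (31.0 FPKM) and KO2 (33.7 FPKM). Kap was highest there, with 42280 FPKM in WT3 and 42143 in KO2, as was Aqp1, with 275 and 308 FPKM. Over all tested genes the deviations of WT3 and KO2 from their group means correlated at 0.55. A course shared by these libraries is thus not particular to these genes. The part of library composition in these correlations was not tested.

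**Figure D3:**
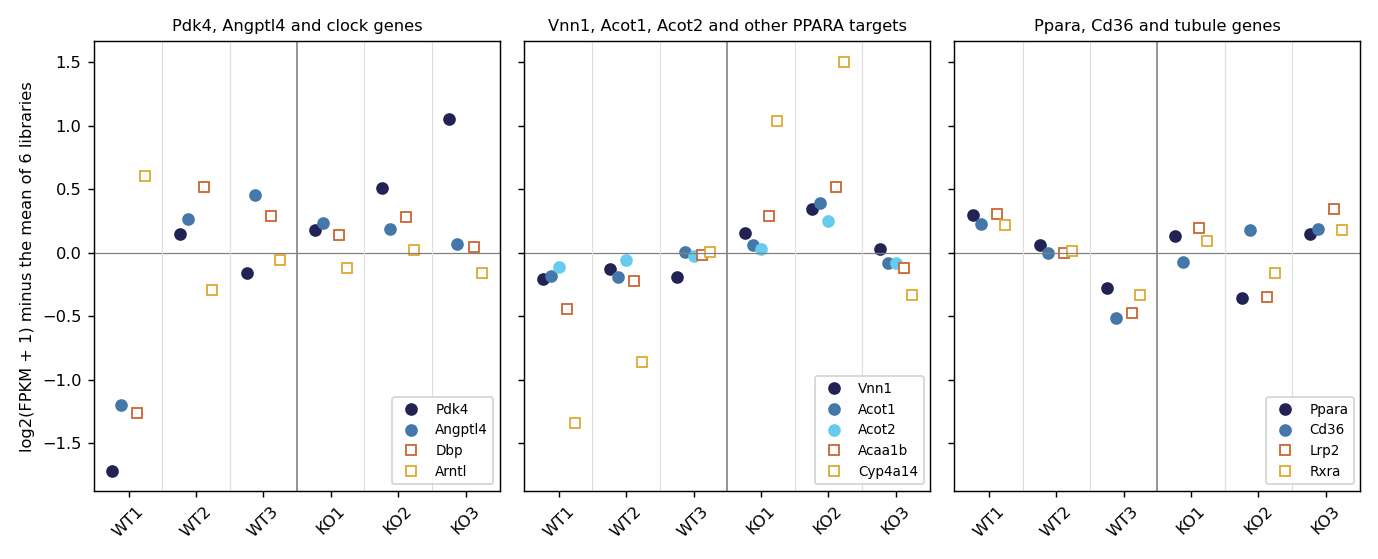
Level in each library as log2(FPKM + 1) minus the mean of the 6 libraries (vertical axis), for genes of the set (filled circles) and other genes (open squares), in wild-type (WT) and knockout (KO) libraries. Pdk4, Angptl4 and Dbp drop in WT1 while Arntl is high there. Vnn1, Acot1, Acot2, Acaa1b and Cyp4a14 peak in KO2, and Ppara, Lrp2 and Rxra are low in WT3 and KO2.

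The genes most like Pdk4 among 11450 other tested genes were Klf11, Tcf19, Cspg4, Kazn and Klf10, with correlations from 0.96 to 0.98 over the 6 libraries. Klf10 and Klf11 encode zinc finger repressors of the Krüppel-like family. Klf10 had 2.38 FPKM in WT1, 4.47 in WT2 and 4.12 in WT3, and 5.37 in KO1, 5.76 in KO2 and 5.71 in KO3, and Klf11 had 1.67 FPKM in WT1, 3.44 in WT2 and 3.36 in WT3, and 3.80 in KO1, 3.66 in KO2 and 5.07 in KO3. Both were lowest in WT1, as Pdk4 was. The mean of the 8 tested genes, each scaled to mean 0 and SD 1, was close to Morn1, Gsap, Lpar2 and Slc35f2, with correlations from 0.96 to 0.97. That mean was -0.47 in WT1, -0.076 in WT2 and -0.44 in WT3, and 0.029 in KO1, 0.78 in KO2 and 0.17 in KO3.

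Against the whole table, knockout and wild-type kidney differed in no gene past an adjusted p of 0.05. limma called 0 of the 12174 tested genes, a share of 0%, while 629 genes (5.17%) had an unadjusted p under 0.05. Of the 8 genes of this set in the fit, 6 had a log2 difference above 0, where 35.1% of all tested genes did. That share was 49.8% once the sums of the libraries were equalised and 53.5% once their medians were. The count stayed at 6 of the 8 in each. Their median was 0.22, beside -0.040 over all tested genes. Groups lay apart with the knockout higher for 2 of the 8, Pdk4 and Vnn1, where 2.01% of tested genes did. The choice of genes used this comparison, so these counts are not a result about them. Without WT3 the count above 0 was 5, and without KO2 it was 7 with a median of 0.13.

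Other PPARA targets, 40 genes of fatty acid oxidation, omega-hydroxylation, lipid storage and related steps, leaned the same way. limma called 0 of the 37 tested, and 8 had an unadjusted p under 0.05, beside 5.17% of all tested genes. A log2 difference above 0 was found for 34 of 37, beside 35.1% of all tested genes. The median was 0.13, beside -0.040. With library sums or medians equalised 34 of 37 stayed above 0, beside 49.8% and 53.5% of all tested genes. For 8 of the 37 all knockout values lay above all wild-type values, beside 2.01% of all tested genes, and for 0 all lay below, beside 8.57%. Genes of this kind had already been seen to lean higher in these libraries, so the list is no independent support. Without WT3 and KO2 together, 25 of 37 were above 0 and the median was 0.097.

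The omega-hydroxylases of the CYP4 family had the smallest p in that list. Cyp4a14 had a log2 difference of 1.47 (SE 0.482), Cyp4a10 of 0.56 (SE 0.198) and Cyp4a12a of 0.74 (SE 0.267), and the limma adjusted p of the 3 was 0.914, 0.941 and 0.941. These genes are close relatives and can share reads. Cpt1a, the gate of mitochondrial fatty acid entry, had a log2 difference of 0.077 (SE 0.145) and Acadm, the medium-chain dehydrogenase, of 0.064 (SE 0.132), both within their spread. Fgf21, the fasting hormone of the liver, was at most 0.0437 FPKM.

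**Figure D4:**
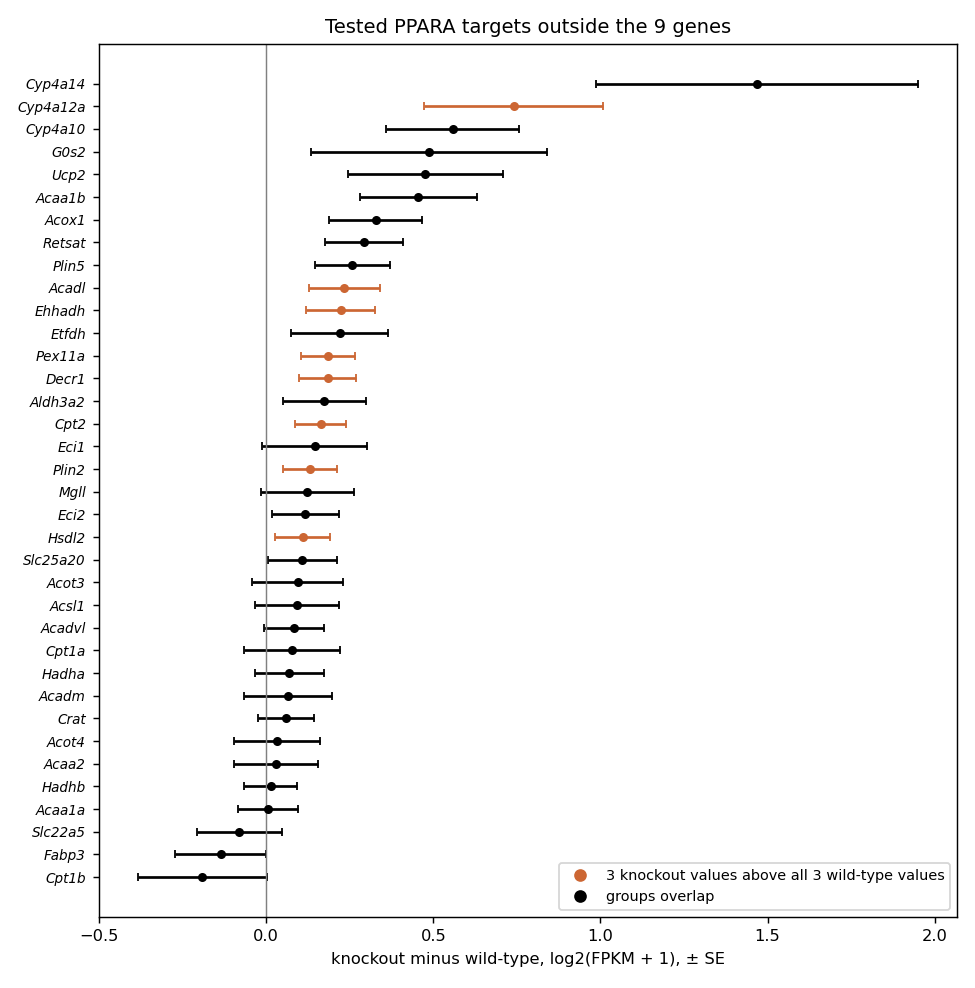
Difference of knockout minus wild-type in log2(FPKM + 1), ± SE, for 36 of the 37 tested PPARA targets outside the 9 genes, sorted by size. Of these 33 lie above 0, most of them by less than 0.3, and the 8 in orange have all knockout values above all wild-type values.

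No gene was called among the pathway neighbours of the 9 genes. Of the 17 tested partners and coregulators of PPARA and related factors, such as Nrf1 and Tfam, 0 were called. Of these 9 lay above 0, beside 35.1% of all tested genes, and the median was 0.0096. Rxrb, Pprc1 and Nrf1, with the smallest p among them, had log2 differences of -0.19, -0.19 and -0.18. For 2 of the 17, Rxrb and Pprc1, all knockout values lay below all wild-type values, beside 8.57% of all tested genes. For 0 all lay above, beside 2.01%. In the pyruvate dehydrogenase switch around Pdk4, 0 of 12 were called and the median was 0.0087. Mpc1 and Mpc2, the pyruvate carrier of mitochondria, had -0.13 and -0.10, Dlat, a subunit of the complex, 0.083, and the sister kinases Pdk1, Pdk2 and Pdk3 0.0073, -0.063 and -0.012. Pdk4 at 13.0 FPKM was less abundant in wild-type kidney than Pdk2 at 94.5 FPKM.

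Among 10 other tested acyl-CoA thioesterases 0 were called, with a median of 0.058. Acot11, Acot12 and Acot8 had log2 differences of 0.22, 0.15 and 0.069. Acot3 and Acot4, from the cluster that holds Acot1 and Acot2, had 0.094 and 0.031. Of 12 tested genes of lipoprotein lipase and fatty acid uptake, around Angptl4 and Cd36, 0 were called. Of these 3 lay above 0, beside 35.1% of all tested genes, and the median was -0.097. Gpihbp1, the endothelial anchor of lipoprotein lipase, had -0.43, Fabp5 -0.35 and Fabp4 -0.45, with overlapping groups for each. Of the endothelial markers 10 of 10 lay below 0, as did 7896 of all 12174 tested genes. The part of endothelium in these values was not tested. Lpl itself, the enzyme that ANGPTL4 inhibits, averaged 434 ± 30.3 FPKM in the wild-type and 413 ± 33.7 FPKM in the knockout (SD, n = 3 each).

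Coenzyme A turnover, the setting of Vnn1, had 0 of 10 tested genes called and a median of 0.077. Of the 10, 8 lay above 0, beside 35.1% of all tested genes. Nudt19, a peroxisomal hydrolase of coenzyme A that is abundant in kidney, had 482 FPKM in WT1, 491 in WT2 and 464 in WT3. In the knockout it had 509 FPKM in KO1, 551 in KO2 and 555 in KO3. For 1 of the 10, Nudt19, all knockout values lay above all wild-type values, beside 2.01% of all tested genes. For 0 all lay below, beside 8.57%. Pank1 and Pank2, kinases of coenzyme A synthesis, had log2 differences of 0.14 and -0.091. Vnn3, the close relative of Vnn1, was at most 0.0371 FPKM.

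Other fasting signals were also counted. Of 16 tested genes, FOXO factors and targets of FOXO factors or glucocorticoids, 0 were called. Of these 6 lay above 0, a share near the 35.1% of all tested genes, and the median was -0.12. Foxo3 had a log2 difference of -0.36, Igfbp1, a binding protein of insulin-like growth factors that rises in fasting, 0.64 and the glucocorticoid-induced Klf15 -0.20. For 2 of the 16, Foxo3 and Klf15, all knockout values lay below all wild-type values, beside 8.57% of all tested genes. For 0 all lay above, beside 2.01%. Pck1, the gluconeogenic enzyme that rises in fasting, had 655 FPKM in WT1, 1040 in WT2 and 1227 in WT3, and 1007 in KO1, 859 in KO2 and 1165 in KO3, with WT1 lowest again. Of 13 tested clock genes 0 were called and the median was -0.0092, and Cry2, Hlf and Per2 had log2 differences of 0.42, 0.19 and -0.40. For 1 of the 13, Cry2, all knockout values lay above all wild-type values, beside 2.01% of all tested genes. For 0 all lay below, beside 8.57%.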

How the data were processed

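RNA of 6 kidney samples was sequenced, from total RNA and a SMARTer mRNA kit per the labels' protocols. The deposited file is 1 table of FPKM by gene, made by the authors, with a column for each library. Per the submitters' processing notes the builds are GRCm38 and mm10, names of the same assembly. The aligner, quantifier and annotation were not given in the sources used here. Columns were tied to samples by their names. Knockout columns carry A8, the end of HSPA8, with the number of the title.

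Values were taken as log2(FPKM + 1) and fitted by limma 3.58.1 (R 4.3.3) to 12174 genes with a mean of at least 1 FPKM. Group was the single term, the variance followed a trend, tests were two-sided, and p-values were adjusted by Benjamini-Hochberg over all of these genes. Differences on this scale understate changes of low genes. The fit was tested on simulated data. FPKM keep no depth, so no interval that needs it is given. Sequences and gene positions are RefSeq's, GRCm38.p6. Transcripts are GENCODE M21's. Motifs were searched in Python 3.11.15 and Acot transcripts aligned with Biopython 1.88.

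The genes and lists were chosen with earlier results of these data known. Of each other pathway list the 3 genes with the smallest p are named, as none passed, with the 5 most like Pdk4 and 4 of the 5 most like the set's mean. Results of 2 genes are not reported here. Markers and other genes named were picked after their values were seen. Alternatives were pseudocounts of 0.1 and 0.5, no filter and a mean of at least 5 FPKM, 3 scalings, a robust variance, the replicate number as a block and each library left out.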

Additional observations from a re-analysis of the deposited data

How the results depend on the processing

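Of 128 alternative values of the 8 tested genes over 16 settings, 123 kept their sign and 5 did not. The settings with no filter, a mean of at least 5 FPKM, a robust variance or the replicate block cannot change a difference. Their signs were thus fixed in advance. With each library left out in turn, Angptl4 ran from -0.19 (WT1 left out) to 0.63, Cd36 from -0.013 (WT3 left out) to 0.36 and Ppara from -0.21 to 0.11. Ppara was above 0 when WT1 (0.081) or KO2 (0.11) was left out. Leaving out WT3 and KO2 at the same time was chosen after seeing the data, and it gave Cd36 -0.053, a median of 0.12 for the set and 5 genes called. The count of genes called over the table ran from 0 to 5 with each library left out in turn. It was 5 without KO2 and 0 without each other single library. The median of the set ran from 0.13 to 0.28 on leaving out single libraries, and that of the other PPARA targets from 0.11 to 0.17. The median of all genes, -0.040, was -0.00047 with library sums, 0.0096 with library medians and 0.0024 with quantiles equalised. Same-numbered libraries correlated in their deviations at 0.31, -0.21 and -0.32, and not every library correlated best with its own number. The largest value was 0.55, between WT3 and KO2, and the lowest was -0.49, between WT1 and KO2. Deviations within so small a group are tied to each other, so these values cannot settle whether the numbers pair the libraries. With the replicate block 0 genes were called. The median of the set was 0.22, which a balanced block cannot change. The standard error fell with the block for Pdk4 (0.239 beside 0.449), Angptl4 (0.290 beside 0.376) and Ppara, and rose for the other genes of the set in the fit.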
